A study of Homo sapiens with 11 samples.

Results

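The 10 keratin genes described here were chosen by name as keratins of simple, stratified and hair-forming epithelia. They are 5 type I genes (KRT14, KRT17, KRT18, KRT19 and KRT20) and 5 type II genes (KRT5, KRT7, KRT8, KRT80 and KRT81). They stand among 55 keratin genes of the wider family and 19646 protein-coding genes with an RNA level and an annotated transcription start site (TSS). RNA level was taken as FPKM, reads scaled to transcript length and library size, summed over the transcripts of a gene. Chromatin was taken from the positions of ChIP-seq peaks of H3K4me3 (promoters), H3K27ac (active promoters and enhancers) and H3K27me3 (Polycomb-repressed chromatin).

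Keratins are the intermediate filament proteins of epithelial cells. A keratin filament is built from pairs of a type I and a type II chain, so a cell that makes filaments needs at least a single member of each type. Simple epithelia, such as the lining of kidney tubules, are known for the pair KRT8 (type II) and KRT18 (type I), often joined by KRT7 (type II) and KRT19 (type I), whereas the basal layer of stratified epithelia is known for KRT5 (type II) and KRT14 (type I). Type II genes lie in a cluster on chromosome 12, which also holds the type I gene KRT18, and the other type I genes lie in a cluster on chromosome 17.

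All values came from HK2, an immortalised human proximal tubule line, grown under 1 condition in DMEM-F12 with serum, antibiotics and a trace of DMSO. RNA-seq had 2 libraries and each of the 3 marks had 2 replicates. The labels do not say whether they came from separate cultures, so the spread given with each value may be technical, and with 1 condition no test between groups was possible. The coverage deposited beside FPKM implies 5.67 and 5.52 Gb of aligned bases in the libraries. The peak lists carry no read counts, and the number of reads under any given peak is not known.

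The labelled cell type was checked against markers. Of 9 proximal tubule markers, 2 reached 1 FPKM in both libraries, GGT1 (64.1 and 58.1) and SLC5A2 (1.56 and 2.36), and the receptor LRP2 and the transporters SLC22A6 and SLC22A8 were listed at 0. Of 4 other epithelial markers, PAX8 was at 100 and 104 FPKM, EPCAM at 39.9 and 41.4 and CDH16 at 3.71 and 3.07, whereas CDH1 was at 0.210 and 0.283. Of the 3 loop and collecting duct markers and the 3 endothelial markers, none reached 1 FPKM. Of the 3 blood and the 3 fibroblast markers, 1 each did, CD68 (42.5 and 36.8) and COL1A1 (40.3 and 39.9), with PTPRC and CD3E listed at 0. The cells thus had RNA of 3 of these 4 epithelial markers but little of CDH1, with 3 defining proximal tubule genes listed at 0.

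Stretches of DNA before the start of 3 of the genes are shown first, because these genes stand at opposite ends of the range of RNA levels. The sequences are those of RefSeq on GRCh38.p14, which matched GRCh37 exactly at a single place each. The promoter table held KRT5, KRT8 and KRT20. For KRT5 (chr12:52914179-52914208, minus strand) and KRT20 (chr17:39041495-39041524, minus strand), the last 30 bases before the start are given, and capitals mark ATAAAA, a variant of the TATA box. The KRT5 stretch also falls in the 5′ untranslated exon of another KRT5 transcript. For KRT8 (chr12:53320254-53320503, minus strand), all 250 bases before the start of transcript ENST00000552150 are given. They lie in introns of longer KRT8 transcripts.
KRT5: gATAAAAagggggcatcaccgttcctgggt
KRT20: tcATAAAAggctagctcaacaccctccatg
KRT8: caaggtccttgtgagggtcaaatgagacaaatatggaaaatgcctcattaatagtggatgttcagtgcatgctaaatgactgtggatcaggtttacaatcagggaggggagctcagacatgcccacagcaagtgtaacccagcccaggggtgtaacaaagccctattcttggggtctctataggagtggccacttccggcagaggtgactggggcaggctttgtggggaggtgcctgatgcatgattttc

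Windows of 250 bases before the start were searched on both strands for ATAAAA, for the TATA box as TATAAA (which shares letters with the former), for the GC box as GGGCGG, for the AP-1 site as TGANTCA and for the CCAAT box. Positions count back from the base before the start, which is -1. ATAAAA on the strand of the gene began at -29 in KRT5 and at -28 in KRT20. The KRT20 window also held ATAAAA at -193 on the same strand and at -236 on the opposite strand, and the CCAAT box at -79. Of 35116 RefSeq windows, 1.97% held ATAAAA on the strand of the gene in the last 40 bases. ATAAAA was chosen after the sequences were seen, so this share is a description. The KRT8 window held none of these letters. Of all windows, 14.8% held ATAAAA, 10.7% the TATA box, 42.6% the GC box, 6.57% the AP-1 site and 32.01% the CCAAT box. The KRT8 window lies before the start of ENST00000552150, and windows before the other KRT8 starts were not searched. CG dinucleotides numbered 6 in the KRT5 window, 1 in KRT8 and 2 in KRT20, against a median of 11. The chromatin of the windows differed. The KRT8 window was covered over all 250 bases by H3K27ac in both replicates and by no peak of H3K4me3 or H3K27me3. The KRT5 and KRT20 windows were covered by no peak of any mark.

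RNA levels of the 10 keratins spread widely, from 0 FPKM to a mean of 182 FPKM. Of the 10 keratins, 6 had at least 1 FPKM in both libraries (KRT7, KRT8, KRT18, KRT19, KRT80 and KRT81), beside 58.8% of protein-coding genes, and 2 were listed at 0 in both (KRT5 and KRT14), beside 19.6%. The median of the mean FPKM was 17.3 over the 10 keratins, 3.32 over all protein-coding genes and 0 over the wider family. In bulk RNA, fewer cells that express a gene and less RNA per cell cannot be told apart.

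KRT8, the type II chain of simple epithelia, had 179 and 184 FPKM in libraries 1 and 2 (182 ± 3.73, SD, n = 2) and ranked 231 of 19646. KRT19, a type I chain without the usual tail domain, had 123 FPKM in each (123 ± 0.187) and ranked 376. KRT18, the usual type I partner of KRT8, had 68.0 and 44.2 FPKM (56.1 ± 16.9) and ranked 1011. These 3 genes together held 80.96% and 84.8% of the summed FPKM of the 10 keratins.

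KRT7, a type II chain of ductal and glandular epithelia, had 50.8 and 29.2 FPKM (40.04 ± 15.3). KRT80, a type II keratin described in many epithelia, had 31.9 and 30.02 FPKM (30.97 ± 1.34). Adjacent genes in this order did not overlap between libraries from KRT8 to KRT19 or from KRT19 to KRT18, whereas KRT18 overlapped with KRT7 and KRT7 with KRT80. After KRT80 the level dropped. KRT81, a type II keratin of hair, had 4.08 and 3.29 FPKM (3.68 ± 0.559), 8.41 times below KRT80 by the ratio of means, and ranked 9583.

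**Figure D1:**
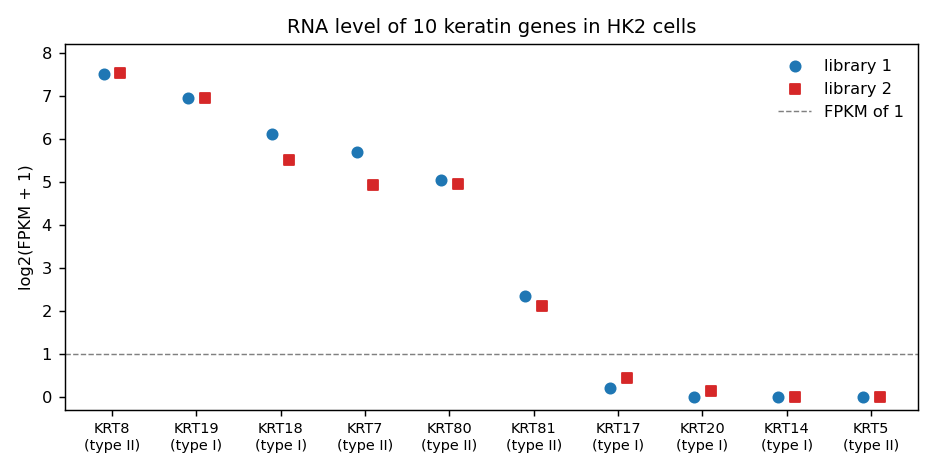
RNA level of the 10 keratins as log2(FPKM + 1), with a circle for library 1, a square for library 2 and a dashed line at an FPKM of 1. KRT8 and KRT19 stand highest, with libraries at 179 and 184 and at 123 and 123 FPKM, KRT18 and KRT7 are lower in library 2, and KRT5 and KRT14 lie at 0.

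The remaining 4 genes stayed below 1 FPKM. KRT17, a type I keratin induced in wounded and stratified epithelia, had 0.160 and 0.351 FPKM. KRT20, a type I keratin of intestine and urothelium, was listed at 0 in library 1 and had 0.0928 FPKM in library 2. KRT5 and KRT14, the basal pair, were listed at 0 in both libraries for all of their 11 and 3 transcripts. The assignment of KRT17 to transcripts differed: library 1 had no coding KRT17 transcript above 0, and in library 2 coding transcripts held 0.320 FPKM, 91.2% of the gene. The summed coverage of KRT17 was only 0.906 and 1.94, too low to settle which transcript was present.

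The balance of partner chains was described by ratios of FPKM. KRT8 stood at 2.63 times KRT18 in library 1 and 4.17 times in library 2 (3.40 ± 1.09, n = 2), so that the ratio moved with KRT18. Summed over the 10 keratins, type II had 266 and 247 FPKM and type I had 191 and 168. The type II to type I ratio was 1.39 and 1.47 (1.43 ± 0.0565), closer between libraries than the ratio of the single pair.

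Among the 5 keratins with a mean of at least 5 FPKM, KRT7 and KRT18 differed most between libraries. On the log2(FPKM + 1) scale, library 2 was lower by 0.78 for KRT7 (log2 difference -0.78) and by 0.61 for KRT18 (-0.61), whereas the differences of KRT8 (0.04), KRT19 (0.00) and KRT80 (-0.09) were small. Of 8732 protein-coding genes with a mean of at least 5 FPKM, 2.05% were lower in library 2 by 0.5 or more and 2.49% were higher by as much, and the median difference of all of them was 0.00. Among the 5 keratins in that range, 2 were lower by as much and none higher. With coding transcripts alone, the log2 difference was -0.14 for KRT7 and -0.63 for KRT18, so KRT7 no longer passed this threshold.

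Transcripts set these 2 genes apart. KRT7 has 1 coding transcript, ENST00000331817, with 27.4 and 24.7 FPKM, a log2 difference of -0.14. A short transcript without a defined coding sequence, ENST00000546666, had 17.1 FPKM in library 1 and 0.174 in library 2. It starts at 52626449 in GRCh37, within the same H3K27ac peaks as the coding transcript. The coding share of KRT7 was therefore 53.9% in library 1 and 84.4% in library 2. KRT18 differed in its coding transcripts, which summed to 62.5 and 39.98 FPKM (log2 difference -0.63). The canonical ENST00000388835 had 52.7 and 31.95 FPKM, ENST00000388837 had 7.22 and 0.188, and ENST00000550600 had 2.59 and 7.84, so the lower KRT18 level was not that of a non-coding transcript.

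**Figure D2:**
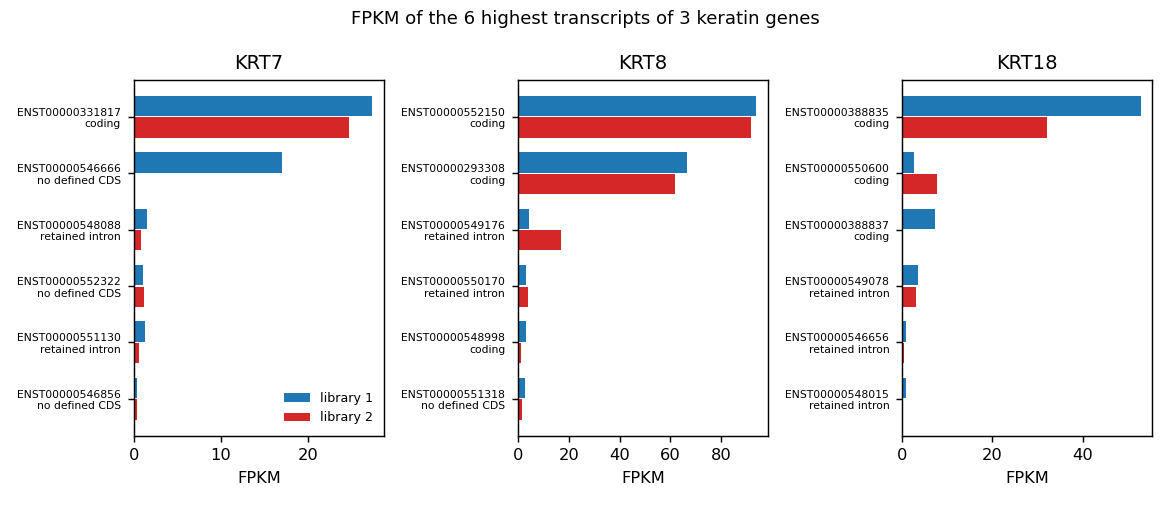
FPKM of the 6 transcripts of highest mean in KRT7, KRT8 and KRT18, with a blue bar for library 1 and a red bar for library 2, and the transcript class under each identifier. ENST00000546666 of KRT7 is long in library 1 (17.1) and near 0 in library 2 (0.174), whereas the coding KRT7 transcript is alike in both (27.4 and 24.7).

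KRT8 RNA was assigned to several starts. ENST00000552150, which starts at 53320253, held 93.8 and 91.5 FPKM, 52.4% and 49.7% of the gene. ENST00000293308, which starts at 53300402, held 66.4 and 61.9 FPKM. A group of 8 transcripts that start from 53343560 to 53343738, next to the start of KRT18, held 9.32 and 7.96 FPKM. A retained-intron transcript, ENST00000549176, had 4.46 FPKM in library 1 and 17.1 in library 2, the largest change within the gene. The canonical KRT8 transcript of the GRCh37 annotation, which starts at 53298860, is newer than the annotation used for FPKM and has no value.

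The marks at these KRT8 starts were not alike. The start of highest FPKM, 53320253, lay inside H3K27ac peaks of both replicates (53317560 to 53321952 and 53317930 to 53321105). From it, the nearest H3K4me3 of replicate 1 lay at 291 bp and that of replicate 2 at 13305 bp. H3K4me3 in both replicates covered the canonical start instead (53296255 to 53299021 and 53296881 to 53298896) and the start shared with KRT18 (53342368 to 53344650 and 53342354 to 53344377). Thus the start to which the largest share of FPKM was assigned had replicated H3K27ac without replicated H3K4me3. Short reads that fall in exons shared by transcripts do not show their start, and the assignment is an estimate of the authors' software.

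KRT8 and KRT18 lie head to head in opposite orientation, and their annotated transcripts overlap from 53342655 to 53343738. The H3K4me3 peaks named above and the H3K27ac peaks 53342330 to 53344505 and 53342884 to 53343602 belong to both genes. Whether read strand was used in the FPKM is not given in the sources used here, so reads in this overlap could not be assigned to either gene with certainty.

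The other genes were simpler. In KRT19, ENST00000361566 held 112 and 116 FPKM, and the transcripts at its main start held 92.5% and 95.5% of the gene. In KRT80, ENST00000394815 had 17.5 and 15.5 FPKM and ENST00000313234 had 12.3 and 10.4, both from the same start region. KRT81 FPKM came from the single transcript ENST00000327741.

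Marks at the starts differed among the keratins. Within 1 kb of any annotated TSS, H3K4me3 was present in both replicates for 5 keratins (KRT7, KRT8, KRT18, KRT19 and KRT80), beside 70.3% of protein-coding genes. H3K27ac was present in both replicates for the same 5 keratins, beside 55.0%. No H3K27me3 peak lay there for any of the 10 in either replicate, beside 11.4% of genes with a peak in both. The paper reports a lower fraction of mapped reads in peaks for H3K27me3 than for the other marks. A missing peak therefore does not show that the mark was absent. The full pattern of both active marks without an H3K27me3 peak was found at 5 of 10 keratins, near the 51.4% of all genes. These were the 5 keratins of highest FPKM.

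No peak in any of the 6 lists lay within 1 kb of a TSS of KRT5, KRT17, KRT20 or KRT81, beside 15.1% of genes. KRT14 had a single H3K4me3 peak of replicate 2 (39742754 to 39743026), 121 bp from its start. Its 273 bp are the smallest width in that list.

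KRT81 joined a level above 1 FPKM in both libraries with the lack of any peak at its start, a combination found in 65 genes, 0.331% of protein-coding genes. Within the wider family KRT10 had it as well, but with H3K4me3 (580 bp) and H3K27ac (1370 bp) of both replicates elsewhere in the gene. The nearest H3K27ac to the KRT81 start was inside the gene, 2734 and 2704 bp away, while H3K4me3 was 11214 and 16527 bp away. Over the gene body, H3K27ac in both replicates covered the same bases in KRT81 and in the 5 keratins above, 6 of 10, beside 59.3% of genes. H3K4me3 in both replicates did so in 5 of 10, beside 71.3%, and H3K27me3 in none, beside 14.3%. The bases shared by both replicates in KRT81 span chr12:52682139-52682584 (446 bp), which holds exon 4 and intron sequence of the gene. Of these, 200 intronic bases (chr12:52682262-52682461, minus strand, GRCh37) are given, from the middle of this stretch, because it holds the H3K27ac nearest to the KRT81 start. They held none of the motifs above and no CG dinucleotide, and no base is in capitals.
KRT81 intron: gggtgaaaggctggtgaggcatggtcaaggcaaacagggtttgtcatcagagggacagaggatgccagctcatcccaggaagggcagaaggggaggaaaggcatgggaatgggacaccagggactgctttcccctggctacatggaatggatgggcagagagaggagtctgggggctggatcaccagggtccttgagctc

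The KRT81 values carry a limit from its neighbour. KRT86, a hair keratin on the opposite strand, overlaps KRT81 (52643084 to 52702947), and 36.6% of the 75-base windows of the KRT81 transcript also occur in other keratin transcripts, most of them in KRT86 (32.99%). KRT86 was listed at 0.358 and 0.399 FPKM. Reads of these genes cannot be told apart where the sequence is shared.

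Peak width differed among the 5 marked keratins. The H3K27ac peak at the KRT80 start was 10565 bp wide in replicate 1 (52579108 to 52589672) and 8075 bp in replicate 2 (52580115 to 52588189). Of genes with H3K27ac at a TSS, 2.05% and 0.305% had a peak as wide, against medians of 2096 and 967 bp. KRT80 thus had the widest H3K27ac at a start of the 10 keratins in both replicates, at a lower RNA level than KRT8, KRT18 and KRT19. KRT7 followed with 6082 and 4445 bp and KRT8 with 4393 and 3176 bp. KRT18, at 2176 and 719 bp, was near the median in replicate 1 and below it in replicate 2. KRT19 depended on the replicate, with 5657 bp in replicate 1 and 556 bp in replicate 2. Its H3K4me3 peaks at the main start were 2060 and 2390 bp wide.

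Acetylation around the starts was also summed. Within 25 kb of the canonical start, bases in H3K27ac of both replicates numbered 12007 for KRT80, 8003 for KRT7, 6254 for KRT8, 5788 for KRT19 and 3895 for KRT18, against a median of 954 and a 75th percentile of 2243 over protein-coding genes. KRT81 had 4706 and KRT20 4622, although neither had a peak at its start. KRT17 had 516, and KRT5 and KRT14 had 0. Only 0.901% of genes had as many bases as KRT80, and 9.30% had as many as KRT20. These windows hold neighbouring genes too.

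**Figure D3:**
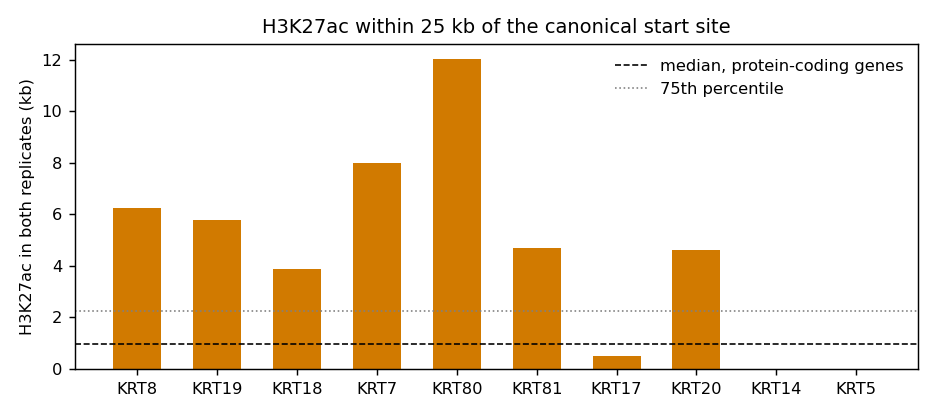
Kilobases within 25 kb of the canonical start that lie in H3K27ac peaks of both replicates, as a bar for each of the 10 keratins in order of RNA level, with lines at the median (954 bp) and the 75th percentile (2243 bp) of protein-coding genes. KRT80 is highest at 12007 bp, KRT81 and KRT20 exceed the upper line, and KRT14 and KRT5 have no bar.

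In the wider family of 29 type I and 26 type II genes, 8 of 55 reached 1 FPKM in both libraries, 4 of each type, beside the 58.8% of all genes. Apart from the 6 above these were KRT10, a keratin of differentiating epidermis, with 14.6 and 12.6 FPKM (13.6 ± 1.45), and KRT15, a basal keratin, with 1.49 and 1.58 FPKM. Another 32 were listed at 0 in both libraries, beside 19.6% of protein-coding genes. H3K27me3 lay within 1 kb of a TSS in both replicates of 4 genes, KRT6A, KRT73, KRT76 and KRT84, all of type II and all listed at 0, beside 11.4% of protein-coding genes. At KRT84 the peaks of replicate 1 (52775850 to 52779135) and replicate 2 (52780079 to 52781717) shared no base. A further 28 of the 55 had no peak of any mark within 1 kb of a TSS, beside 15.1%. The 4 genes with H3K27me3 were named after their values were seen.

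Along the chromosome 12 cluster (chr12:52562780-53346690, 784 kb, 27 keratin genes), peaks were not spread evenly. H3K27ac in both replicates covered 4.47% of the cluster and 1.27% of the chromosome, H3K4me3 1.05% and 0.800%, and H3K27me3 1.68% and 0.605%. Coverage was above that of the chromosome in each replicate by itself as well. H3K27me3 covered 9.42% of the cluster in replicate 1 (chromosome 2.69%) and 2.90% in replicate 2 (0.872%), H3K27ac 9.29% (3.78%) and 4.55% (1.296%), and H3K4me3 2.45% (1.63%) and 2.87% (1.55%). KRT80, KRT7 and KRT81 lie at the left end and KRT8 and KRT18 at the right end. Between KRT81 and KRT8 lie 606 kb with 21 keratin genes, of which 18 were listed at 0 and the highest, in mean FPKM, had 0.302. All 40 and 29 H3K27me3 peaks of the cluster lay in this stretch, where they covered 12.2% in replicate 1, 3.76% in replicate 2 and 2.18% in both. Replicated H3K27ac covered 0.743% of it. KRT5 lies there, with its nearest H3K27me3 2128 and 24943 bp from a start and its nearest H3K27ac 73614 and 227366 bp away. The stretch was delimited after the values were seen, so its low FPKM is a description.

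**Figure D4:**
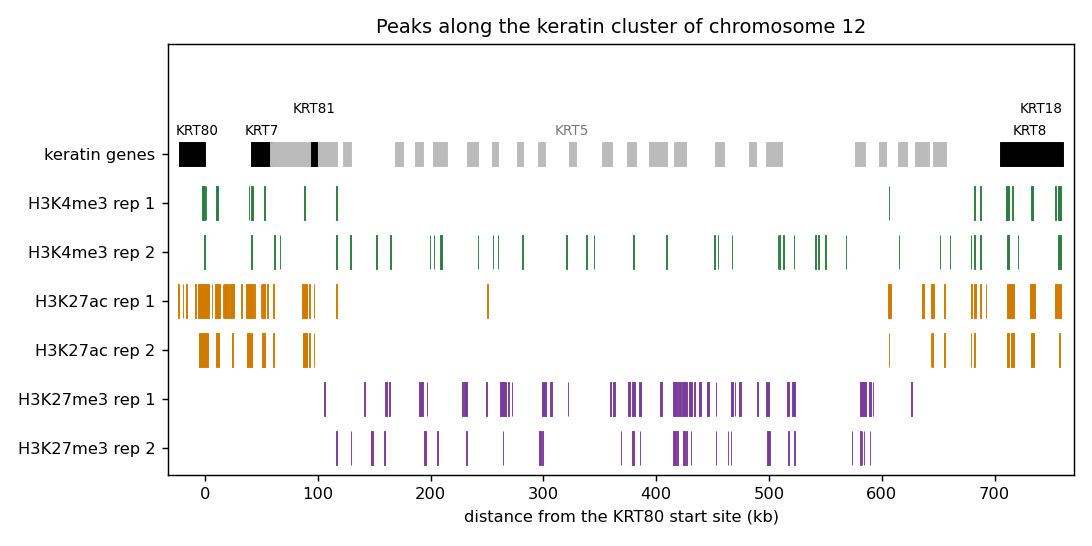
Keratin genes and peaks of the 3 marks in both replicates along the chromosome 12 cluster, by distance in kb from the KRT80 start. Black genes reached 1 FPKM in both libraries and grey genes did not, and peaks narrower than a line are drawn at line width. H3K27ac lies mainly at the ends, and all 40 and 29 H3K27me3 peaks lie between KRT81 and KRT8.

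The chromosome 17 cluster (chr17:38810917-39781094, 970 kb, 28 keratin genes) held few H3K27me3 peaks. H3K27me3 in both replicates covered 0.0626% of it, against 0.546% of the chromosome, with 5 peaks in each replicate. H3K4me3 covered 0.348% against 1.78%, and H3K27ac 4.05% against 2.56%. In replicates 1 and 2 by themselves, H3K27me3 covered 0.446% (chromosome 1.59%) and 0.234% (0.761%), H3K4me3 0.827% (2.91%) and 1.72% (3.58%), and H3K27ac 10.7% (6.15%) and 4.18% (2.62%). In each replicate H3K27ac was thus above the chromosome and the other marks were below it. Between KRT10 and KRT15 lie 691 kb with 15 keratin genes, of which 7 were listed at 0 and the highest, in mean FPKM, had 0.354. This stretch, likewise delimited after the values were seen, held no H3K27me3 peak in either replicate and no base of replicated H3K4me3, whereas replicated H3K27ac covered 4.06%. KRT14, listed at 0, had its nearest H3K27me3 15579 and 11045 bp and its nearest H3K27ac 33634 and 33972 bp away.

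**Figure D5:**
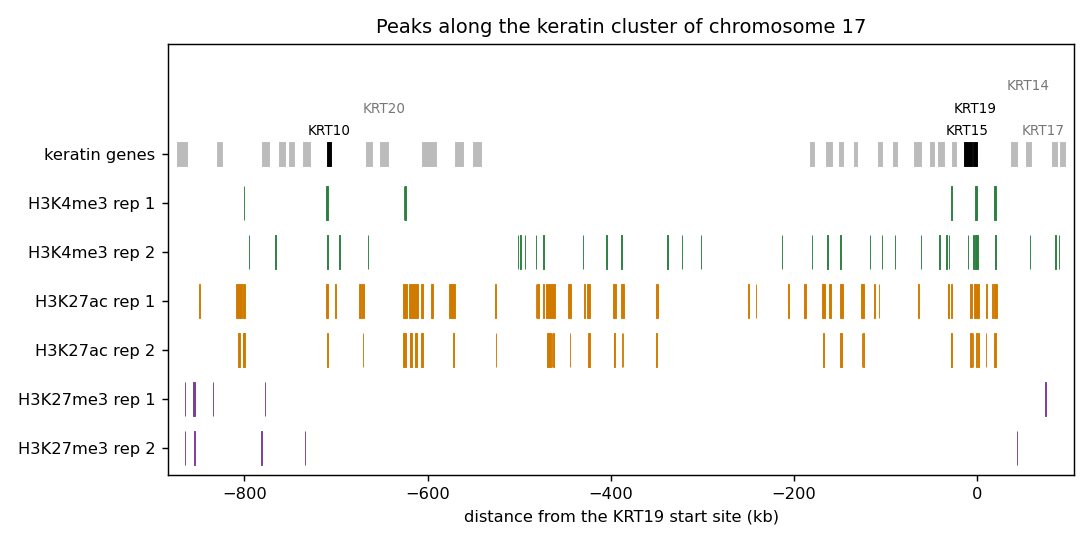
Keratin genes and peaks of the 3 marks in both replicates along the chromosome 17 cluster, by distance in kb from the KRT19 start, drawn as in the map of chromosome 12. Only 5 H3K27me3 peaks are present in each replicate, none between KRT10 and KRT15, where H3K27ac covers 4.06% in both replicates.

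Genes that work with keratins were described from named lists, beside the 58.8% of all protein-coding genes that reached 1 FPKM in both libraries. Of 16 desmosome and plakin genes, which anchor keratin filaments to cell junctions, 11 did. The highest were PLEC (70.7 and 69.5), a cytoskeletal linker, DSP (30.4 and 33.4), which ties keratin to desmosomes, and JUP (30.2 and 29.6), a plaque protein. DSG1, a desmosomal cadherin of epidermis, was listed at 0. Of 6 hemidesmosome genes, which tie keratin filaments to the basement membrane, 5 did, among them LAMA3 (20.04 and 23.05) and LAMB3 (12.7 and 11.8).

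Of 8 other intermediate filament genes, 6 reached 1 FPKM. VIM, the filament of mesenchymal and many cultured cells, had 709 and 1133 FPKM, above every keratin in each library, and LMNB2 (67.5 and 62.8) and LMNB1 (56.2 and 59.8), of the nuclear lamina, followed. VIM was higher in library 2, in which KRT7 and KRT18 were lower and KRT8, KRT19 and KRT80 hardly differed. Most of the KRT7 difference lay in a transcript without a defined coding sequence (17.1 and 0.174 FPKM). The coding KRT7 transcript had 27.4 and 24.7 FPKM, and VIM was not examined by transcript. Whether these differences are related was not tested.

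Of 12 epithelial transcription factors, 4 reached 1 FPKM in both libraries. ELF3 had 33.6 and 32.7 FPKM, KLF5 8.18 and 8.42, and TFAP2A 3.54 and 3.52, whereas GRHL2, EHF and OVOL1 were listed at 0. TP63, the factor of basal stratified cells and named after its values were seen, was listed at 0 in library 1 and had 0.0530 FPKM in library 2. Of 7 genes of stratified differentiation, 1 did, SFN (10.8 and 9.72), with IVL, LOR, SPRR1A and SPRR1B listed at 0 and TGM1 at 0.995 and 1.64. Of 4 urothelial genes none did, and UPK3A was listed at 0. Low KRT5, KRT14 and KRT20 thus stood beside low levels of most genes of the stratified differentiation and urothelial lists. Genes of the basal side were not all low. Of 6 hemidesmosome genes 5 reached 1 FPKM in both libraries, and the basal keratin KRT15 had 1.49 and 1.58 FPKM. The other hemidesmosome gene, COL17A1, named after its values were seen, had 0.225 and 0.280 FPKM. KRT15 lies next to KRT19 on the same strand. Within 1 kb of a KRT15 TSS, H3K27ac was present in both replicates and H3K4me3 in replicate 2 alone.

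The protein-coding genes most like the highest keratin of each type were found among 10092 others with the same pattern in the 6 peak lists, by the nearest mean log2(FPKM + 1) over 2 libraries. For KRT8 they were PDIA3 (183 and 181 FPKM), a protein disulfide isomerase, and PLP2 (179 and 184). For KRT19 they were AP2S1 (122 and 124), a subunit of a clathrin adaptor, and ATP5H (122 and 124), a subunit of ATP synthase.

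Processed copies bear on the KRT8 and KRT18 levels. The 50 KRT8 pseudogenes summed to 6.79 and 7.15 FPKM, 3.65% and 3.74% of the gene and its copies together, with 22 above 0. The highest were KRT8P3 (2.97 and 2.56), KRT8P12 (1.63 and 2.04) and KRT8P46 (0.866 and 1.18). The 68 KRT18 pseudogenes summed to 0.784 and 0.929 FPKM. Of the 75-base windows of the canonical transcripts, 18.8% of KRT8 and 6.50% of KRT18 occurred in other keratin transcripts or copies, whereas none of KRT7, KRT19, KRT20 or KRT80 did. The antisense gene KRT7-AS had 0.308 and 0.535 FPKM, small beside KRT7.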

How the data were processed

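Values of the keratin genes were taken from 2 RNA-seq libraries and 6 ChIP-seq peak lists. The HiChIP and input samples were not used here. According to the study's methods, the authors used Bowtie2 for alignment of ChIP-seq reads (hg19) and MACS2 for peaks. The deposited files hold a list for each replicate, with limits only. The authors mapped RNA-seq reads with HISAT2 and deposited FPKM, TPM and coverage per transcript from StringTie 1.3.3, on GENCODE 27 in GRCh38 coordinates, which were never used with the peaks. The study's methods name hg19 for this mapping too, and the difference is unresolved. Genes were joined by Ensembl identifier to GENCODE 44 mapped to GRCh37.

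A gene's FPKM was the sum of its transcripts, and log2 values used a pseudocount of 1. A peak was at a TSS when at least 1 base lay within 1 kb. No replicate number is given for 1 sample of each mark, taken here as replicate 1. The overlap code was tested on simulated intervals. Python 3.11.15, numpy 2.4.6, pandas 2.3.3 and matplotlib 3.10.9 were used.

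The 10 keratins and all lists were chosen with earlier results of these data known, and the motifs after the sequences were seen. The genes named were the 10 keratins, family members at a mean of 1 FPKM or more, the 3 highest and the absent genes of each list, the 3 highest copies or overlapping genes, and the 2 most alike genes of each type. A gene that this rule takes in is not reported here.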

Additional observations from a re-analysis of the deposited data

How the results depend on the processing

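No paired analysis was possible because no result comes from a test between groups. Of 90 alternative values, 70 stayed within the spread between replicates or within 1.5 times a count, and 20 moved further. None reversed, but counts, percents and ratios of levels cannot change sign, so this says little about them. Counts of keratins by FPKM (minimum of 0.5 or 5, TPM, a single library) and by marks at a TSS (windows of 500 bp or 2 kb, a single replicate) stayed within 1.5 times. Cluster coverage depended on how replicates were combined. In either replicate, H3K4me3, H3K27ac and H3K27me3 covered 4.27%, 9.37% and 10.6% of the chromosome 12 cluster and 2.20%, 10.8% and 0.617% of that on chromosome 17. With 1 replicate left out in turn, the ranges were 2.45% to 2.87%, 4.55% to 9.29% and 2.90% to 9.42% on chromosome 12, and 0.827% to 1.72%, 4.18% to 10.7% and 0.234% to 0.446% on chromosome 17. Replicate 1 alone gave the higher coverage for H3K27ac and H3K27me3 and replicate 2 alone for H3K4me3, of which it had more peaks. The cause was not tested. The type II to type I ratio was 1.32 with protein-coding transcripts only. Library differences of KRT17 and KRT20, both under 1 FPKM, moved with a pseudocount of 0.1 (to 0.80 and 0.95, larger in size than the -0.62 of KRT18) or with TPM, as did that of KRT19 with TPM, which remained at 0.02 on the log2 scale. The 2 libraries limit the precision of every FPKM value.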
